A study of Rattus norvegicus with 6 samples.

Results

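VEGF, PDGF, PDGF receptor, CSF-1 and Gas-6 are features of a spotted rat array whose genes carry signals between mesenchymal, vascular and myeloid cells. They were taken by their exact names on the array, a rule that uses no measured value, although the group was proposed with earlier results of these data known. They are 5 of its 311 features. Each was printed as 4 or 5 spots, and all 5 were read on all 6 arrays. Each array set 1 RNA sample in one dye against RNA of untreated ROSE199, a cell line from rat ovarian surface epithelium, in the other dye. The study asked how the chromatin protein HMGA2 and a mutant K-RAS oncogene shape expression in these cells.

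The 4 groups were as follows. ROSE199 carrying the empty expression vector pEF6 was measured on 1 array. ROSE199 carrying pEF6 with an HMGA2 construct was measured on 2 arrays. Both were stable transfectants selected in 10 µg/ml blasticidin, and the labels do not say whether they were clones or pools. ROSEA25 cells given siRNA against EGFP, a gene these cells are not said to carry, were measured on 1 array, and ROSEA25 given siRNA against HMGA2 on 2 arrays. ROSEA25 was taken as the RAS-transformed derivative of ROSE199 because the protocol calls the cells ROSE-RAS. The siRNA was given at 0.2 µM in 2 transfections 24 h apart, with analysis 48 h after the first. All cells grew in 10% fetal calf serum, and 20 µg of RNA went into each labelling. Replicate 1 arrays carried the sample in Cy5, and replicate 2 arrays carried it in Cy3. The labels do not say whether arrays sharing a group used the same RNA. They were treated as dye swaps of 1 RNA, which leaves no replicate culture in any group, and no test or p-value is given. The reference for ROSEA25 is untreated ROSE199, which received no siRNA reagents.

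VEGF drives the growth and permeability of blood vessels and is induced by hypoxia and by RAS signalling. PDGF is a mitogen for fibroblasts, smooth muscle cells and pericytes, and acts through receptor tyrosine kinases that feed into RAS. CSF-1 supports the survival and growth of macrophages and also acts on epithelial cells of the female reproductive tract. Gas-6, first found as a transcript of growth-arrested fibroblasts, is the ligand of the TAM receptors Axl, Tyro3 and Mer. Of the receptors for these ligands that were searched by name, the array holds a feature only for PDGF receptor. Axl, Tyro3 and Mer were not among the names searched. The array holds no feature for the macrophage and endothelial markers searched. All 6 ovarian surface epithelium markers on the array were above blank in the ROSE199 channel of 6 of 6 arrays. Of the 7 mesenchymal stroma genes, 6 were above blank there on every array and Thy-1 on 5.

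The array names PDGF without a chain and PDGF receptor without a subtype, and the probe sequences are not used here. The names VEGF, CSF-1 and Gas-6 each match 1 rat gene in RefSeq, Vegfa, Csf1 and Gas6. The promoter windows of Gas6 and of the PDGF A and B chain genes, which the PDGF feature may or may not represent, are shown for orientation. PDGF and Gas-6 had the largest differences of opposite direction in ROSEA25. The windows carry no measurement, because the arrays measured RNA and not promoter activity. They are 300-base RefSeq windows (build GRCr8, 5′ to 3′ on the gene's strand). Capitals mark matches on either strand to the GC box GGGCGG. The AP-1 motif TGANTCA and the hypoxia response core ACGTG, searched on both strands in the same way, had no match in these 3 windows. The first line is Pdgfa, chr12:20759116-20759415, plus strand, the second Pdgfb, chr7:113438294-113438593, minus strand, and the third Gas6, chr16:82747426-82747725, plus strand.
Pdgfa: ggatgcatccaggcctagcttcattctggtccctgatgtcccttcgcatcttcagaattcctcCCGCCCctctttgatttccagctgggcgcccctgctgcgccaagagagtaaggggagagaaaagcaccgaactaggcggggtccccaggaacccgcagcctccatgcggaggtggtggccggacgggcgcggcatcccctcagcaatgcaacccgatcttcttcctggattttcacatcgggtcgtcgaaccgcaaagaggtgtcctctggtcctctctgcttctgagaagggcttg
Pdgfb: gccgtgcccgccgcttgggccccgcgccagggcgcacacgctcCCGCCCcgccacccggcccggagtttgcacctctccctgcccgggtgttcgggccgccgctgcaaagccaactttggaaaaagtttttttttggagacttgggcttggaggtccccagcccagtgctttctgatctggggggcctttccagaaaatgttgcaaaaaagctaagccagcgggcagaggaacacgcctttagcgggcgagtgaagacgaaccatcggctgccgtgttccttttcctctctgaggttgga
Gas6: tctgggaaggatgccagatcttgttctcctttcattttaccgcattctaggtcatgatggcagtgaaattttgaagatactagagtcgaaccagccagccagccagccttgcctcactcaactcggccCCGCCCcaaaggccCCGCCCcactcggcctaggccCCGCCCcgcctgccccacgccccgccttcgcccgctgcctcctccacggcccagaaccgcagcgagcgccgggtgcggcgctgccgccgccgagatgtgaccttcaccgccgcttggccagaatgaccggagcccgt
The GC box matched 1 time in Pdgfa, 1 time in Pdgfb and 3 times in Gas6, at places that do not overlap. Of 33469 rat promoter windows of this length, 33.1% hold a GC box, 7.33% the AP-1 motif and 19.3% the hypoxia core. The Vegfa window at chr9:22452604-22452903 (plus strand) held 3 GC boxes and neither of the other motifs, and the second Vegfa window, chr9:22460028-22460327 (plus strand), held none of the 3 motifs. A match is a match of letters, not a measured binding site.

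Values are log2 ratios of sample over ROSE199 after background correction and intensity-dependent centring of each array, averaged over spots. Comparisons are differences of fitted group values with a dye term, with a standard error pooled over all 311 features. It was 0.22 for HMGA2 minus empty vector and siHMGA2 minus siEGFP, 0.19 for the single-array groups minus ROSE199, and 0.12 for HMGA2 and siHMGA2 minus ROSE199. It covers labelling and hybridization only, and the single-array groups contributed no residual to it. It was based on the smaller of 2 pooled SDs, 0.169 from the scaled median absolute residual. The root mean square gave 0.229. To pass, a feature needed a difference of 1 or more in size that exceeded 2 pooled standard errors and kept its sign when only Cy5 arrays were used. A looser rule, chosen after the values were seen, drops the size limit. The HMGA2 feature, listed as HMGI-C, read 0.26 on the empty-vector array, between 3.33 and 3.70 on the HMGA2 arrays, 2.40 on the siEGFP array and between 1.20 and 1.59 on the siHMGA2 arrays. K-ras lay between -0.29 and 0.03 on the 3 ROSE199 transfectant arrays and between 4.25 and 4.82 on the 3 ROSEA25 arrays.

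No growth factor feature passed in any of the 6 comparisons under the main setting, where each fitted difference was under 1 in size. The range of 2 pooled standard errors still reached 1.26 for PDGF in siEGFP minus ROSE199. It reached -1.03 for CSF-1 in HMGA2 minus empty vector. PDGF receptor was not above blank on the siEGFP array, so its size in comparisons with siEGFP is not known. The share of all features that passed was 7.72% in HMGA2 minus empty vector, 26.7% in siEGFP minus ROSE199 and 10.9% in siHMGA2 minus siEGFP. It was 2.89% in empty vector minus ROSE199, 6.75% in HMGA2 minus ROSE199 and 19% in siHMGA2 minus ROSE199. By the looser rule in the main setting, 4 of the 5 features stood apart in siEGFP minus ROSE199 (VEGF, PDGF and CSF-1 higher, Gas-6 lower), where 61.1% of all features did. PDGF (higher) and Gas-6 (lower) did so in siHMGA2 minus ROSE199, against 53.1% of all features. CSF-1 alone did so in HMGA2 minus empty vector (lower, against 28.9%) and in empty vector minus ROSE199 (higher, against 19%). None did so in siHMGA2 minus siEGFP, against 31.2%, or in HMGA2 minus ROSE199, against 47.3%. These counts are close to the background shares or rest on 1 feature, so they give no result about the 5 features as a set. They also rest on the smaller pooled SD, and the larger would widen every range. Nearest the limit were VEGF and CSF-1 in siEGFP minus ROSE199 and CSF-1 in HMGA2 minus empty vector.

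**Figure D1:**
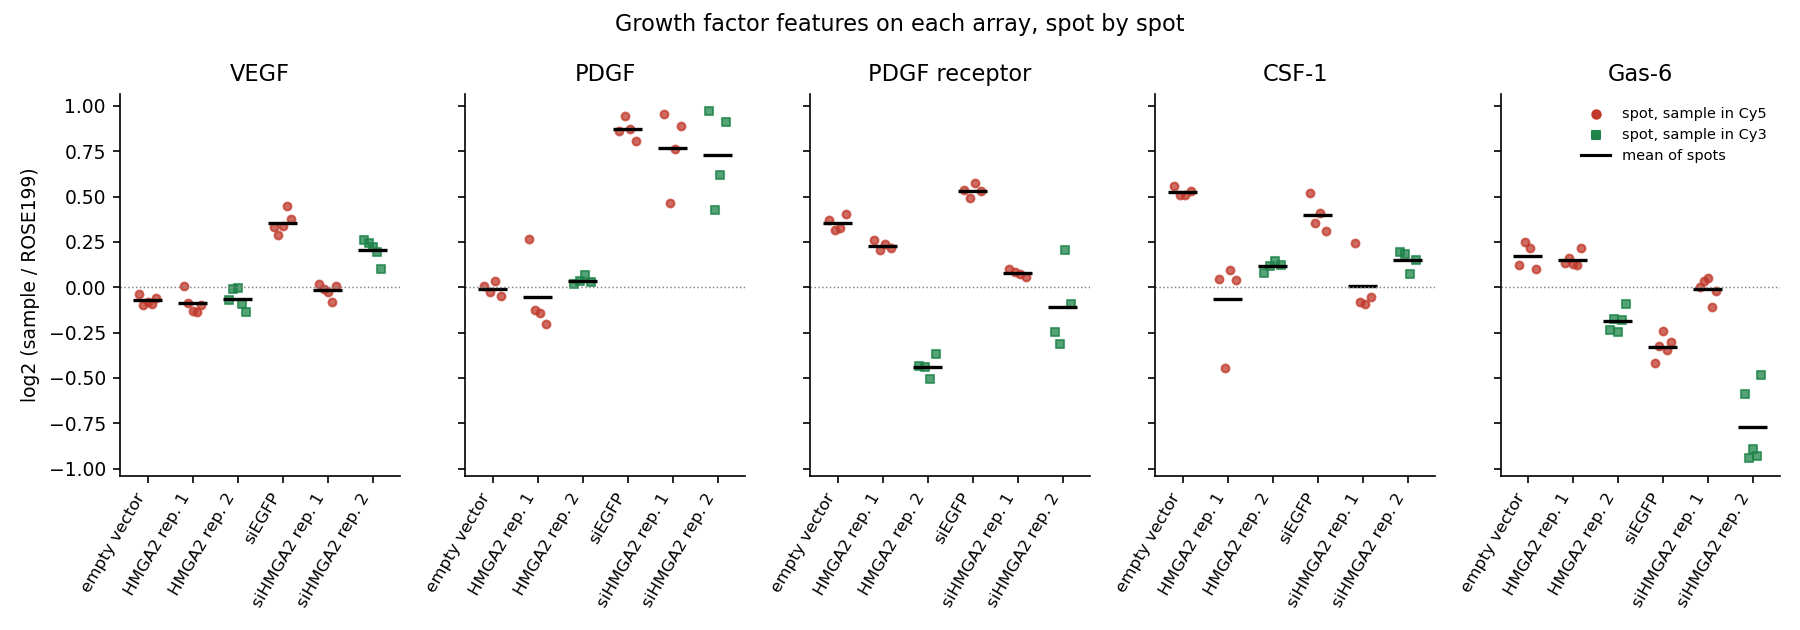
Log2 ratio of sample over ROSE199 (vertical axis, no unit) for each spot of the 5 features on the 6 arrays (horizontal axis). Red circles are arrays with the sample in Cy5, green squares arrays with it in Cy3, and black bars are means of spots. PDGF sits between 0.73 and 0.87 on the 3 ROSEA25 arrays and between -0.05 and 0.04 on the other 3.

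PDGF, the fibroblast mitogen, was the member that most clearly separated the 2 cell backgrounds. Its log2 ratio to ROSE199 was -0.01 with the empty vector, -0.05 and 0.04 on the 2 HMGA2 arrays, 0.87 with siEGFP, and 0.77 and 0.73 on the 2 siHMGA2 arrays. The 3 ROSEA25 arrays were all higher than the 3 ROSE199 transfectant arrays. The 2 siHMGA2 arrays were treated as 1 RNA, and the share of all features separated in this way was not counted. By the looser rule, 61.1% of all features stood apart in siEGFP minus ROSE199 and 53.1% in siHMGA2 minus ROSE199. The fitted difference was 0.88 for siEGFP minus ROSE199, or 1.85-fold, with a range of 2 pooled standard errors from 0.51 to 1.26. It was 0.75 for siHMGA2 minus ROSE199, or 1.68-fold, with a range from 0.51 to 0.99. In those comparisons 41 and 36 of the 311 features lay above it.

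PDGF stayed on the same side under both dyes, since the dye swaps of siHMGA2 differed by 0.04, less than the median gap of 0.27 over all features. Its ratio did vary between spots of 1 array. With siHMGA2 replicate 1 in Cy5, spots with net sample signals of 1006.8 and 934.4 read 0.96 and 0.89, whereas spots at 537.9 and 222.4 read 0.76 and 0.46. With siHMGA2 replicate 2 in Cy3, spots at 1639.3 and 1674.5 read 0.97 and 0.91, and spots at 398.3 and 442.1 read 0.42 and 0.62. The brighter spots gave the larger ratio on both siHMGA2 arrays. On HMGA2 replicate 1 the order was the reverse, with the dim spot at 348.1 reading 0.27 and the 3 spots at 1503.6 to 1698.6 reading -0.20 to -0.13. With siEGFP the 4 spots lay close together, from 2478.8 to 2869.6 in net sample signal and from 0.80 to 0.95 in log2 ratio. When only the 2 brightest spots of each feature were used on each array, an alternative chosen after these values were seen, PDGF was 0.95 for siEGFP minus ROSE199 and 0.93 for siHMGA2 minus ROSE199.

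With siRNA against HMGA2, PDGF in siHMGA2 minus siEGFP was -0.14 in the main setting, with a range of 2 pooled standard errors from -0.58 to 0.31. The value depended on processing. It was -0.51 with median centring and -0.66 with housekeeping centring, which both leave out the intensity-dependent correction. It was 0.13 with arrays scaled to one spread. In the authors' deposited table it was -0.76, beyond 2 of that table's pooled standard errors. HMGA2 minus empty vector was -0.01, with a range from -0.46 to 0.43, and empty vector minus ROSE199 was 0.00. These ranges do not show that the groups are equal. The size of the ROSEA25 difference depended on processing. For siEGFP minus ROSE199 it ran from 0.53 with arrays scaled to one spread to 1.61 with housekeeping centring, and PDGF passed under 4 of 17 alternatives. All 17 gave a positive sign and a size over 2 of their own pooled standard errors, in both ROSEA25 groups. They reuse the same arrays and are not 17 independent checks. For siEGFP minus ROSE199, for example, no dye term and Cy5 arrays only both gave 0.87.

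**Figure D2:**
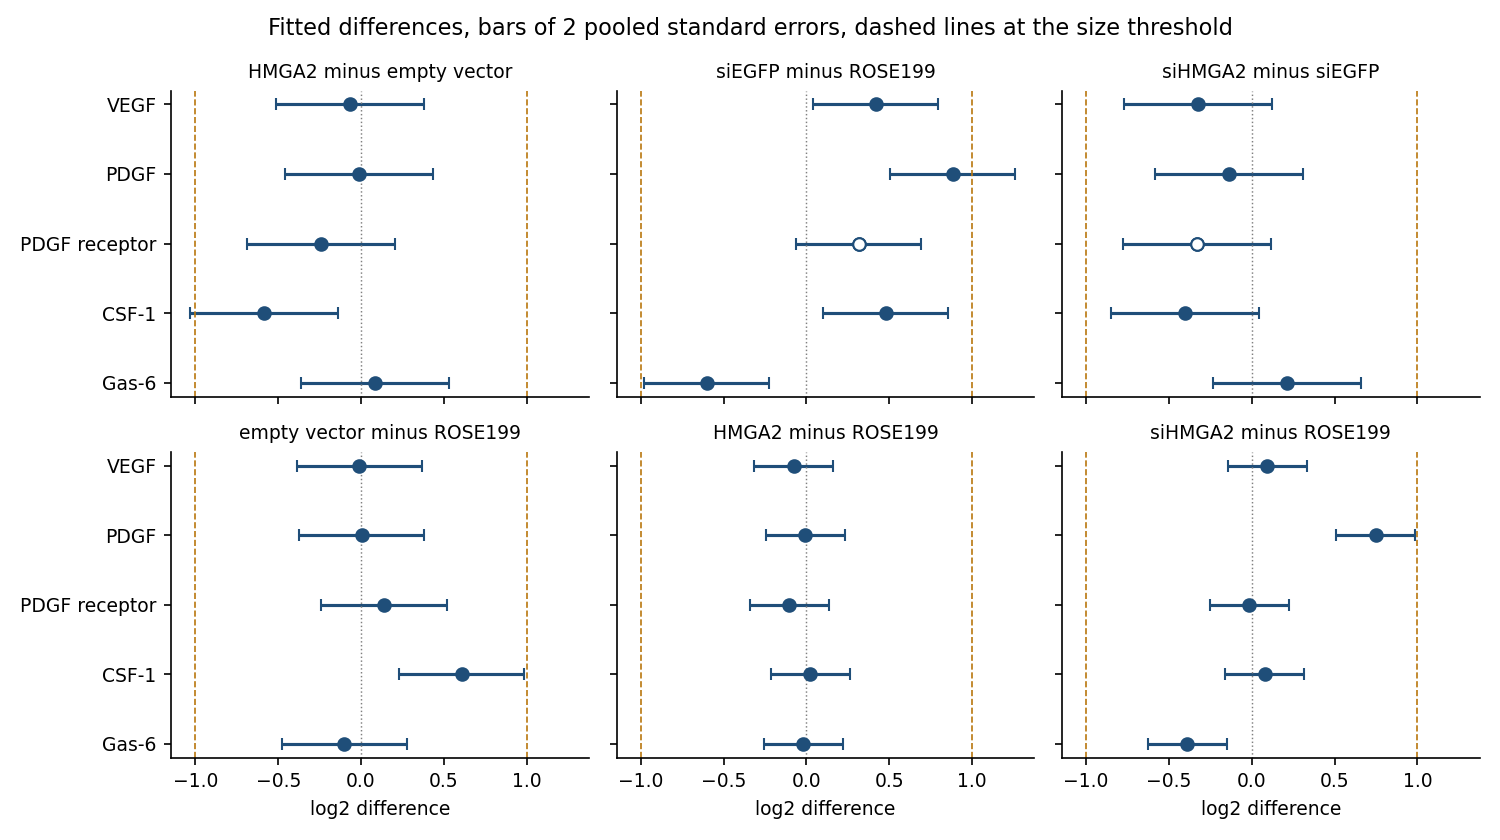
Fitted log2 differences (horizontal axis) of the 5 features in the 6 comparisons, with bars of 2 pooled standard errors and dashed lines at the size threshold of 1. Open circles mark PDGF receptor where siEGFP was not above blank, and PDGF at 0.88 and 0.75 lies farthest from 0 in the 2 ROSEA25 panels against ROSE199.

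PDGF receptor, the tyrosine kinase for that ligand, was the dimmest of the 5 features and could be compared least. Its log2 ratio was 0.35 with the empty vector, 0.23 and -0.44 on the 2 HMGA2 arrays, 0.53 with siEGFP, and 0.08 and -0.11 on the 2 siHMGA2 arrays. The arrays of different groups overlapped. The median net signal over arrays was 152 in the sample channel and 174 in the ROSE199 channel, against 1163 and 828 for PDGF, and such signals are not compared as levels between probes. On the siEGFP array its sample signal of 65.3 was under the blank threshold of 158, and ROSE199 was not above blank on that array or on siHMGA2 replicate 2.

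The dye swaps of HMGA2 differed by 0.67 for PDGF receptor, a gap larger than that of 93.2% of features. HMGA2 minus empty vector was -0.24, empty vector minus ROSE199 was 0.14, HMGA2 minus ROSE199 was -0.10 and siHMGA2 minus ROSE199 was -0.02, all within 2 pooled standard errors. For siEGFP minus ROSE199 no fold is given, because the bound from the lowest signal above blank was under 1. For siHMGA2 minus siEGFP the fitted value was -0.33, but the bound read at least 1.03-fold higher, so no direction is given.

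VEGF, the endothelial growth factor, varied little between samples. Its log2 ratio was -0.07 with the empty vector, -0.09 and -0.06 on the 2 HMGA2 arrays, 0.36 with siEGFP, and -0.02 and 0.20 on the 2 siHMGA2 arrays. The siEGFP array was highest, but the siHMGA2 array with the same dye lay much closer to the ROSE199 transfectants than to siEGFP. VEGF was 0.42 in siEGFP minus ROSE199, or 1.34-fold, with a range of 2 pooled standard errors from 0.04 to 0.80. It was over 2 pooled standard errors in 7 of 17 alternatives, and not when either siHMGA2 array was left out (0.37 for each) or without background subtraction (0.19). It was 0.09 in siHMGA2 minus ROSE199 and -0.32 in siHMGA2 minus siEGFP, with a range from -0.77 to 0.12, so the 2 ROSEA25 groups were not separated.

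With HMGA2, VEGF was at -0.06 against the empty vector, with a range from -0.51 to 0.38, and at -0.08 against ROSE199. Several VEGF values changed when the intensity-dependent centring gave way to centring on a single value per array. Centring on beta actin turned siEGFP minus ROSE199 to -0.13, and centring on the array median moved it to 0.10 and HMGA2 minus empty vector to -0.58. VEGF had low net signals, between 165 and 416 in the sample channel. Of the 3 glycolysis and hypoxia-linked genes on the array, only E1B 19k Bcl-2 BP, a protein that binds members of the Bcl-2 family, passed in siEGFP minus ROSE199 (2.65) and in siHMGA2 minus ROSE199 (2.07). Glucose transporter (0.28) and GAPDH (0.09), a glycolytic enzyme, did not pass in siEGFP minus ROSE199. Of all features 26.7% passed in siEGFP minus ROSE199 and 19% in siHMGA2 minus ROSE199.

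CSF-1, the macrophage growth factor, was the only member beyond 2 pooled standard errors between the 2 kinds of ROSE199 transfectants in the main setting. Its log2 ratio was 0.53 with the empty vector, -0.07 and 0.12 on the 2 HMGA2 arrays, 0.40 with siEGFP, and 0.01 and 0.15 on the 2 siHMGA2 arrays. The empty-vector and siEGFP arrays were the highest, and both dye-swapped groups lay near 0. HMGA2 minus empty vector was -0.58, or 1.50-fold lower, with a range of 2 pooled standard errors from -1.03 to -0.14. That range used the smaller pooled SD, and the larger one would widen it. Empty vector minus ROSE199 was 0.61, or 1.53-fold, with 9 features above it and 301 below.

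These CSF-1 differences share the single empty-vector array, on which the 4 spots read 0.51 to 0.56 with net sample signals of 3691.9 to 4814.2. HMGA2 minus ROSE199 was 0.02, so HMGA2 cells were at the level of untreated ROSE199 within 2 pooled standard errors (-0.22 to 0.26). Both HMGA2 arrays, and no others, were quantified on a separate day, so day and HMGA2 construct cannot be told apart. HMGA2 minus empty vector kept its sign under 17 of 17 alternatives, from -1.01 to -0.50, and passed only with arrays scaled to one spread. The alternatives reuse the same arrays, and several gave the same value (-0.59). HMGA2 minus empty vector was over 2 of their own pooled standard errors in 14 of 17 alternatives. It was within them without HMGA2 replicate 1 (-0.56), with no dye term (-0.50) and with beta actin centring (-0.52).

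In ROSEA25, CSF-1 was 0.48 in siEGFP minus ROSE199, or 1.39-fold, with a range from 0.10 to 0.86. It was 0.08 in siHMGA2 minus ROSE199 and -0.40 in siHMGA2 minus siEGFP, with a range from -0.85 to 0.05. In the main setting the siHMGA2 value thus lay under the siEGFP value by less than 2 pooled standard errors. The difference was over 2 of their own pooled standard errors in 4 of 17 alternatives, at -0.82 with median centring, -0.96 with housekeeping centring, -0.70 with beta actin centring and -0.76 in the authors' deposited table. Both comparisons of siEGFP rest on its 1 array. Spots differed here too: on HMGA2 replicate 1, 1 of the 4 CSF-1 spots read -0.44 and the others 0.04 to 0.09. On siHMGA2 replicate 1 the spot with a net sample signal of 1567.4 read 0.24 and the 3 spots at 366.7 to 399.4 read -0.09 to -0.05.

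**Figure D3:**
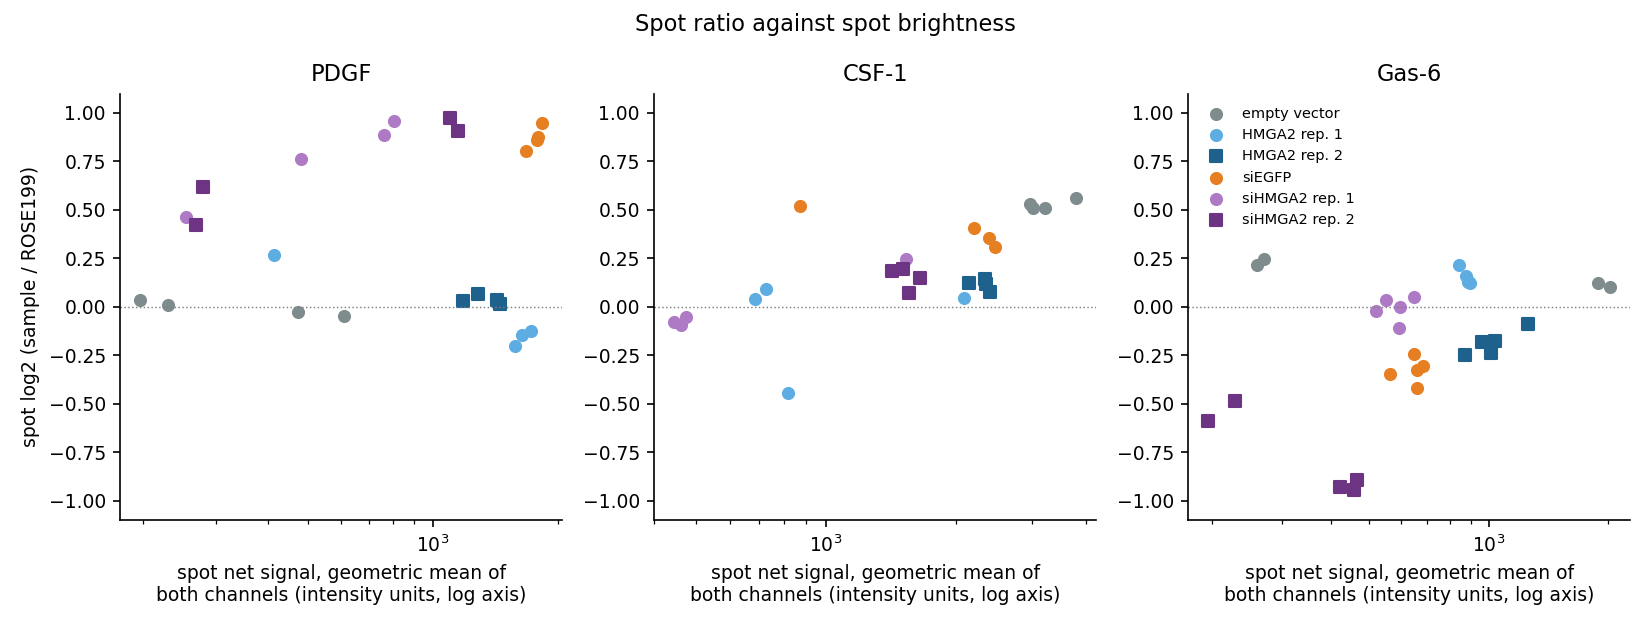
Log2 ratio of each spot (vertical axis) against its net signal (horizontal log axis, intensity units, geometric mean of both channels) for PDGF, CSF-1 and Gas-6, with colours for the 6 arrays, circles for a sample in Cy5 and squares for Cy3. PDGF spots of the siHMGA2 arrays run from 0.42 and 0.46 at their dim ends to 0.97 and 0.96 at their bright ends.

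Gas-6, the TAM receptor ligand, was the only member with a lower fitted value in both ROSEA25 groups than in ROSE199 beyond 2 pooled standard errors. Its log2 ratio was 0.17 with the empty vector, 0.15 and -0.19 on the 2 HMGA2 arrays, -0.33 with siEGFP, and -0.01 and -0.77 on the 2 siHMGA2 arrays. The lowest array was siHMGA2 replicate 2, and siHMGA2 replicate 1 overlapped the ROSE199 transfectants. The fitted difference was -0.60 for siEGFP minus ROSE199, or 1.52-fold lower, with a range of 2 pooled standard errors from -0.98 to -0.22. It was -0.39 for siHMGA2 minus ROSE199, with a range from -0.63 to -0.15.

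Gas-6 ratios differed between dyes. Its dye swaps differed by 0.34 for HMGA2 and 0.76 for siHMGA2, larger gaps than 73.6% and 86.5% of features, and the Cy3 array was the lower in both pairs. With the Cy5 arrays alone siEGFP minus ROSE199 was -0.33 and siHMGA2 minus ROSE199 was -0.01. Without siHMGA2 replicate 2 the latter was -0.18, and without siHMGA2 replicate 1 it was -0.60. On siHMGA2 replicate 2 the 3 spots with net sample signals of 337.5 to 368.0 read -0.94 to -0.89, and the 2 dimmer spots at 212.2 and 246.9 read -0.59 and -0.49.

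No difference in Gas-6 between siHMGA2 and siEGFP was detectable (0.21, with a range from -0.23 to 0.66), and its sign turned without siHMGA2 replicate 1 (-0.10). In the authors' deposited table this difference was 1.32 and siEGFP minus ROSE199 was -1.36, both past the size threshold. HMGA2 minus empty vector was 0.08, with a range from -0.36 to 0.53. Among 4 growth arrest genes, the stress-induced factor GADD153 (1.62) passed as higher and LOT1 (-2.34), a growth-inhibitory zinc finger protein, as lower in siEGFP minus ROSE199. P16 (ink4a) (-0.58) and P27 kip (-0.69), both inhibitors of cyclin-dependent kinases, did not pass. Of all features 26.7% passed in that comparison. None of the 4 passed in siHMGA2 minus siEGFP or HMGA2 minus empty vector, against 10.9% and 7.72% of all features.

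**Figure D4:**
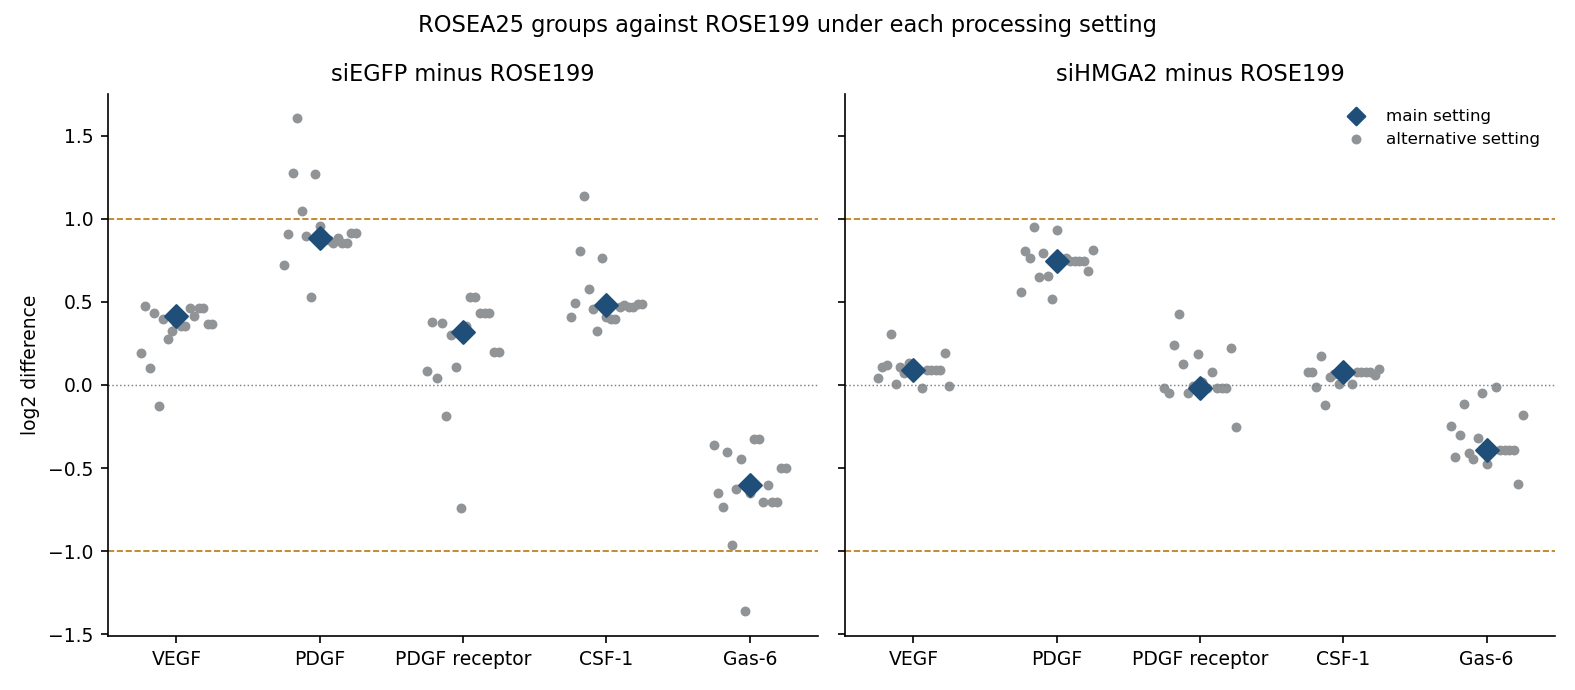
Log2 differences (vertical axis) of the 5 features in siEGFP minus ROSE199 and siHMGA2 minus ROSE199 under the main setting (diamonds) and under the alternatives (grey points), with dashed lines at the size threshold of 1 in either direction. PDGF stays above 0 in both panels, from 0.53 to 1.61 and from 0.52 to 0.95, whereas VEGF crosses 0 in both.

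For each member the 3 features with the most similar ratios over the 6 arrays were found among the 269 features above blank in both channels of every array. Likeness was the root mean square difference of the log2 ratios, a description that says nothing of shared function. PDGF was closest to Syndecan-1 (0.11), Krev1 (0.17) and BC-2 (0.19). Syndecan-1, a cell-surface heparan sulphate proteoglycan, read 0.91 with siEGFP and 0.82 and 0.96 with siHMGA2, and between -0.05 and 0.11 on the ROSE199 transfectant arrays. CSF-1 was closest to ARPP-19 (0.21), Hic-5 (0.22) and Rap1b (0.22). VEGF was closest to Hic-5 (0.12), Cul-1 (0.13) and ESTAA964504 (0.15), none with a ratio over 0.36 in size. Gas-6 was closest to TOPO I (0.15), REST (0.17) and Brahma (0.20). PDGF receptor was closest to PEBP2a1 (0.17), AKAP-KL (0.18) and Schlafen2 (0.20), a ranking that includes its ratios on 2 arrays where a channel was not above blank.

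A list of 11 other features held growth factor ligands, receptors and related proteins. IGFPBP, by its name an IGF binding protein, and Follistatin related protein are neither ligands nor receptors. Of these 11 features, 2 passed as higher and 3 as lower in siEGFP minus ROSE199. Their median was -0.08 beside -0.02 over all features, of which 26.7% passed. Neuritin (4.10), a secreted neuronal protein, and TGF alpha (2.74), a ligand of the EGF receptor, were higher. Follistatin related protein (-3.92) and TGFBT2R (-2.27) were lower, and IGFPBP was at least 3.15-fold lower, being not above blank with siEGFP. In siHMGA2 minus siEGFP 3 passed as higher and TGF alpha (-1.37) as lower, against 10.9% of all features. TGFBT2R (1.36) and Follistatin related protein (1.17) were measured on both sides. IGFPBP passed by its fitted value of 1.08, but siEGFP was not above blank and its bound, at least 1.81-fold, is under the size threshold. In HMGA2 minus empty vector only IGFPBP passed (3.28), against 7.72% of all features. FGF-2, another fibroblast and endothelial mitogen, was at 0.20 in siEGFP minus ROSE199 and -0.25 in HMGA2 minus empty vector.

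The signalling route below the PDGF and CSF-1 receptors was represented by 16 RAS-MAPK features. In siEGFP minus ROSE199, 7 passed as higher and none as lower, with a median of 0.97. Of all features 26.7% passed there, with a median of -0.02. The largest were K-ras (4.24), the phosphatase Cpg21 (2.47), CyclinD1 (2.08) and the feedback inhibitor Sprouty2 (1.49). K-ras is the oncogene under study in these RAS-transformed cells, so its pass is no finding about this route. In siHMGA2 minus ROSE199 5 were higher, K-ras among them, and none lower (median 0.72), where 19% of all features passed. In siHMGA2 minus siEGFP, where 10.9% of all features passed, none was higher and 2 were lower, Ha-ras (-1.41) and Cpg21 (-1.24). Ha-ras ratios to ROSE199 depended strongly on dye. Its siEGFP minus ROSE199 pass (1.37) was 0.07 with Cy5 arrays alone. In siHMGA2 minus ROSE199 it was -0.04 fitted and -1.36 with Cy5 arrays alone. In siHMGA2 minus siEGFP it was -1.43 with Cy5 arrays alone. None passed in HMGA2 minus empty vector, HMGA2 minus ROSE199 or empty vector minus ROSE199, against 7.72%, 6.75% and 2.89% of all features. PDGF at 0.88 and 0.75 was thus below the list's median in siEGFP minus ROSE199 and close to it in siHMGA2 minus ROSE199.

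Of 11 angiogenesis regulators, 3 passed as higher and 4 as lower in siEGFP minus ROSE199, with a median of 0.17, while VEGF stayed at 0.42. Of all features 26.7% passed there. MMP10 (3.82) and MMP-3 (2.49), matrix-degrading stromelysins, were higher. FISP-12 (-5.97), a matricellular protein, and Thrombospondin 1 (-3.76), an inhibitor of vessel growth, were lower. In siHMGA2 minus siEGFP 3 passed as higher, Cyr61 (1.84), Thrombospondin 1 (1.13) and FISP-12 (1.09), and none as lower, against 10.9% of all features. In HMGA2 minus empty vector Cav-1 (1.04) was higher and Cox2 (-1.31), a prostaglandin synthase, lower, against 7.72% of all features. In empty vector minus ROSE199 Thrombospondin 1 alone passed (-1.55), on the same array on which CSF-1 was highest. Unlike CSF-1, it kept this difference with HMGA2. Thrombospondin 1 also passed as lower in HMGA2 minus ROSE199, where CSF-1 was 0.02. In HMGA2 minus empty vector Thrombospondin 1 was -0.05, within 2 pooled standard errors.

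Genes of mesenchymal stroma, cells that usually carry PDGF receptors, and of ovarian surface epithelium were mostly lower in ROSEA25. Of 7 stroma genes 4 passed as lower and none as higher in siEGFP minus ROSE199 (median -1.12). Over all 311 features 48 passed as lower and 35 as higher there (median -0.02). The stroma genes were led by Collagen alpha (-4.70), SM22 (-4.55), a smooth muscle actin-binding protein, and Lox (-3.13), a collagen crosslinking enzyme. Of 6 epithelium markers 5 passed as lower (median -2.26), among them Basonuclin (-4.33), P-cadherin (-3.73) and E-cadherin (-2.55). In siHMGA2 minus siEGFP 2 stroma genes and 3 epithelium markers passed as higher, and none of either list as lower. Over all 311 features 27 passed as higher and 7 as lower there. Lower stroma genes were not particular to ROSEA25. In empty vector minus ROSE199 2 of the 7 passed as lower (median -0.74), against 2.89% of all features. In HMGA2 minus ROSE199 2 also did (median -0.61), against 6.75%. No epithelium marker passed in these 2 comparisons. PDGF ran opposite to both lists in ROSEA25, and Gas-6 in the same direction at a smaller size. Whether these marker genes and the growth factor features share a source was not tested.

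**Figure D5:**
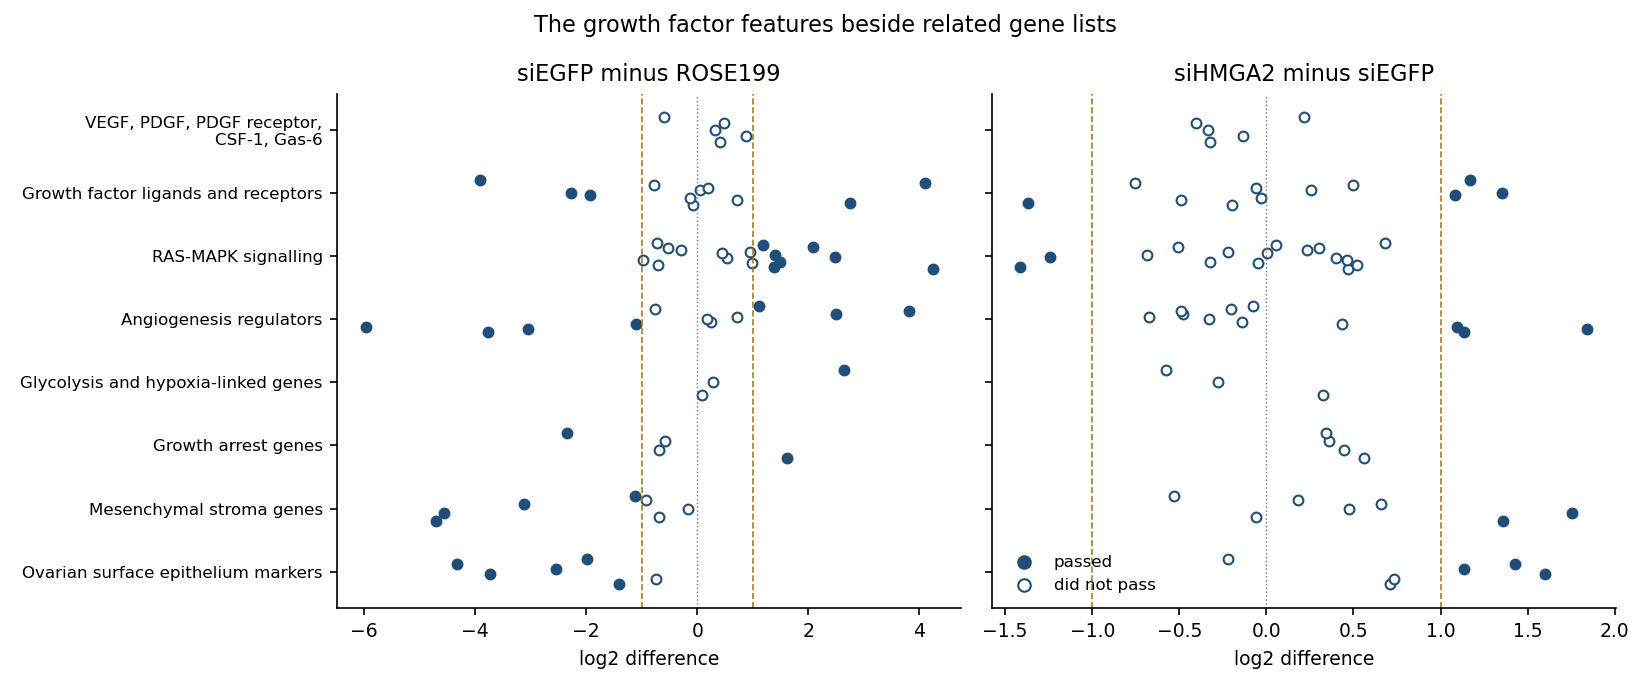
Log2 differences (horizontal axis) in siEGFP minus ROSE199 and siHMGA2 minus siEGFP for the 5 growth factor features (top row) and 7 related gene lists, 1 point per feature, filled where it passed. The top row lies within the dashed lines at 1 in either direction in both panels, while the lists reach from -5.97 to 4.24 in siEGFP minus ROSE199.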

How the data were processed

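The 6 arrays were read in 2 colours. Per the file headers, the quantification files hold spot mean and median background intensity in both channels. A second table that the authors deposited holds log2 ratios, whose centring and background correction are not given in the sources used here. Its direction, sample over ROSE199, was read from correlations of 0.841 to 0.948 with the spot ratios, and it served as an alternative. Of 1760 spots per array, 37 were blank and 325 beta actin. Poor spots (21 to 64 per array) were left out.

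With limma 3.58.1 in R 4.3.3, background was corrected by normexp (offset 50) and ratios centred by loess (span 0.3, 4 iterations), without weight on blank or beta actin spots. Spots were averaged into 311 features, fitted by least squares with 4 group values and a dye term. The 1 residual per feature gave a pooled SD of 0.169 (scaled median absolute residual) or 0.229 (root mean square). The standard errors of the main setting used the first. A channel was above blank when its net signal exceeded the blank mean by 3 SD. A bound sets the lowest signal above blank in place of a dimmer one. The fit was tested on simulated data with equal noise in every feature. Recovery was scored only for true differences larger than any member showed in the main setting. Recovery of differences as small as the members' was not tested. The number of arrays limits the precision, and 17 alternatives were tried, 1 of them chosen after the values were seen. Median, housekeeping and beta actin centring took the place of loess, so they also left out its correction for intensity. The alternatives reuse the same arrays and some coincide for a given difference, so they are not independent checks.

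The members and lists were chosen with earlier results of these data known. All 5 members are named, with up to 4 passing features per list, the largest in size, and the 3 nearest features. Some list members that did not pass are named beside a member after their values were seen.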

Additional observations from a re-analysis of the deposited data

How the results depend on the processing

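Of 504 member differences recomputed under the alternatives, 400 moved by less than 1 pooled standard error and 103 moved by more. The remaining 1 reversed, VEGF in siEGFP minus ROSE199 at -0.13 with beta actin centring. A reversal was counted only where the main difference stood apart by the looser rule. Differences within 2 pooled standard errors changed sign more often. PDGF receptor in siHMGA2 minus siEGFP kept its sign in 11 of 16 alternatives, and PDGF in empty vector minus ROSE199 in 7 of 17. Some alternatives coincide for a given difference, so these are not 504 separate checks. The members that pass numbered 0 in every comparison under the main setting. In siEGFP minus ROSE199 1 passed with median centring (PDGF), 2 with housekeeping centring (PDGF and CSF-1), 1 with beta actin centring (PDGF) and 2 in the deposited log2 ratios (PDGF and Gas-6). With arrays scaled to one spread 1 passed in HMGA2 minus empty vector and 1 in empty vector minus ROSE199, CSF-1 in both, and in siHMGA2 minus siEGFP 1 passed in the deposited log2 ratios (Gas-6). By the looser rule, HMGA2 minus empty vector (1 member) gave 3 with median centring, 0 with beta actin centring, 2 with arrays scaled, 0 with no dye term and 0 to 1 when 1 array was left out, 0 without HMGA2 replicate 1. In siEGFP minus ROSE199 (4 members) there were 2 with housekeeping centring (PDGF and CSF-1), 2 with arrays scaled (PDGF and Gas-6) and 2 with no dye term (PDGF and PDGF receptor). In siHMGA2 minus siEGFP (0 members) there was 1 with median, 1 with housekeeping and 1 with beta actin centring (CSF-1 each time), 1 with no dye term (PDGF receptor) and 4 in the deposited log2 ratios (PDGF, PDGF receptor, CSF-1 and Gas-6). Empty vector minus ROSE199 (1 member) gave 2 with arrays scaled and 2 with Cy5 arrays only, and HMGA2 minus ROSE199 (0 members) gave 1 with median centring. In siHMGA2 minus ROSE199 (2 members) there was 1 with median centring, 1 with housekeeping centring, 1 with the median of spots, 1 in the deposited log2 ratios, 1 with Cy5 arrays only and 1 to 2 when 1 array was left out, 1 without siHMGA2 replicate 2. The cause of these shifts was not tested. The all-feature median shifted under housekeeping centring by 0.30 in siEGFP minus ROSE199, -0.23 in siHMGA2 minus siEGFP and 0.21 in siHMGA2 minus ROSE199, and beta actin centring moved it by 0.20 in HMGA2 minus empty vector, -0.26 in siEGFP minus ROSE199 and 0.17 in HMGA2 minus ROSE199. Relative to those shifts PDGF in siEGFP minus ROSE199 stayed above the median under both. Over the alternatives the count of all features that pass ran from 15 to 40 in HMGA2 minus empty vector (main 24), from 56 to 116 in siEGFP minus ROSE199 (83), from 9 to 65 in siHMGA2 minus siEGFP (34) and from 7 to 24 in empty vector minus ROSE199 (9). Signals close to blank limit PDGF receptor most, and a dye effect particular to the single empty-vector or siEGFP array stays in their values. No paired analysis was possible because the replicate numbers mark dye orientation and single-array groups have no second number.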
